A study of Arabidopsis thaliana with 13 samples.

Results

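Cotyledons of Arabidopsis thaliana that had spent 6 h in vascular induction culture were compared with cotyledons sampled at 0 h. The comparison rests on 2 of the 13 arrays of the time series, the 6 h array and the 0 h array. The 12 h array was used to see which differences lasted. Samples were chosen by their labelled time alone.

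All plants were of the accession Col-0 and carried no transgene or mutation named in the labels. Seedlings grew in liquid MS medium at 22 °C under continuous light, and cotyledons were taken after 6 days. The culture medium of the system, known as VISUAL, held 1.25 mg/L 2,4-D, 0.25 mg/L kinetin and 10 µM bikinin. The 6 h and 12 h cotyledons had been in culture for those times, and the 0 h cotyledons are the labelled start of the course. Each time is 1 array, so no value below has a replicate error, no test was possible and all sizes are descriptions of these arrays. A medium without the agents was not analysed here, and the transfer to fresh medium, the agents and the hours passed cannot be told apart.

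The auxin 2,4-D makes cells degrade Aux/IAA repressors, after which genes such as GH3 are transcribed. Kinetin is a cytokinin and acts through response regulators. Bikinin blocks the GSK3-like kinases that restrain brassinosteroid responses, and in VISUAL leaf mesophyll cells first become procambium-like and then xylem or phloem.

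Values are log2 signals, each array shifted to a common median of 5.65. The log base was read from the range of the values, and every fold given here rests on that reading. Of the probe sets, 30% with the lowest mean over the 13 arrays were left out, which left 10984 genes, 1364 of them with a gene symbol. Of 574 genes in the lists used below and named on the array, 395 passed this filter, and the counts of list members cover those alone. A gene is called higher or lower here when the arrays differed by at least 2-fold, a log2 difference of 1. The medians of the deposited values were close, 5.15 at 6 h and 5.16 at 0 h, and 5.23 at 12 h. The arrays of 0 to 24 h form 1 set by overall level, with medians between 5.15 and 5.35, and all 3 arrays used here belong to it.

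Most mesophyll markers were bright in the 0 h cotyledons. Of 7 such markers, levels at 6 h ran between 5.30 and 11.71, and at 0 h between 5.63 and 12.28. The dimmest, LHCB4.3, lay under the array median of 5.65 at both 6 h and 0 h. Each of the 7 had a difference below 0, but only LHCB4.2 passed 2-fold. RCA, which activates the carbon-fixing enzyme Rubisco, stood at 11.71 at 6 h, against 12.13 at 0 h. Among markers of other cells and organs, the stomatal gene MUTE (3.87 at 6 h and 3.88 at 0 h) and the seed storage gene PAP85 (4.2 at 6 h and 4.35 at 0 h) were too dim to be kept. FMA and SPCH, of guard cells and the stomatal lineage, had log2 differences of -0.15 and -0.41, and SWEET11, a phloem gene, of -0.51. These were also below 0, all within 2-fold, and FMA was above its 0 h level at 12 h, by 0.21. PYK10, a beta-glucosidase best known from roots and the ER bodies of seedlings, was bright in both, at 12.25 at 6 h and 13.08 at 0 h. In whole cotyledons, fewer cells of a type and less RNA per cell cannot be told apart.

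After 6 h, 741 of 10984 genes (6.75%) were at least 2-fold higher and 452 (4.12%) at least 2-fold lower, so 10.9% differed in either direction. Rises outnumbered falls at each size: 197 genes were at least 4-fold higher and 62 lower, 67 were at least 8-fold higher and 16 lower, and 18 were at least 16-fold higher and 5 lower. At 32-fold, 5 genes were higher and 0 lower. Over all genes the median difference was -0.01 and its median size 0.31, on the log2 scale. Genes that were higher at 6 h had a median of 7.71 at 6 h and 5.93 at 0 h, whereas genes that were lower had 6.00 at 6 h and 7.52 at 0 h. All genes tested had a median of 6.94 at 6 h and 6.89 at 0 h. Just inside the limit lay AT4G36550, with a log2 difference of 1.001, and just outside it AT1G43770, with 0.998.

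**Figure D1:**
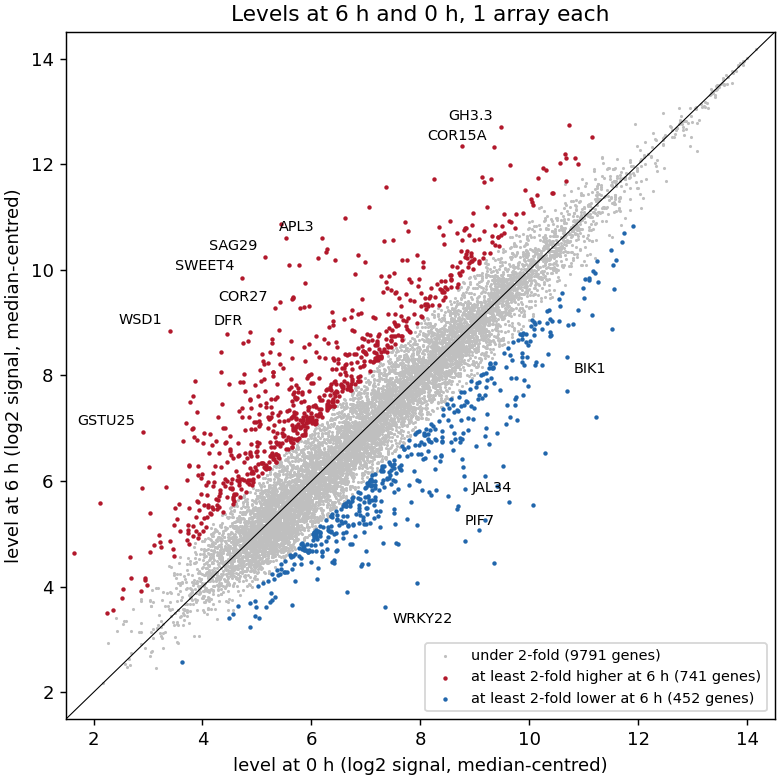
Level of each of 10984 genes at 6 h (vertical axis) against 0 h (horizontal axis), as median-centred log2 signal on 1 array each, with 741 genes at least 2-fold higher in red and 452 at least 2-fold lower in blue. Most genes lie along the diagonal, and WSD1 and GSTU25, far above it, were dim at 0 h.

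Some genes of sugar movement and starch were among the 15 largest rises. SWEET4, a sugar transporter gene, stood at 9.85 at 6 h, against 4.73 at 0 h, which is 35-fold. SAG29, also known as SWEET15, a sugar exporter gene named for its rise in senescing leaves, stood at 10.24 at 6 h and 5.14 at 0 h (34.1-fold). Both were as bright at 12 h, at 10.08 for SWEET4 and 10.60 for SAG29. SWEET2, which encodes a vacuolar sugar transporter, went the other way, with 5.84 at 6 h and 8.03 at 0 h (4.57-fold lower). Over all genes with a symbol, 10.3% were higher and 5.06% lower, and the count of each gene list below stands beside these shares. Of 8 measured SWEET genes 2 were higher and 1 lower, and the median log2 difference was -0.31, with SWEET11 at 11.35 at 6 h and 11.86 at 0 h.

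APL3, a large subunit gene of the enzyme that makes ADP-glucose for starch, had 10.60 at 6 h and 6.19 at 0 h (21.3-fold). Its relative APL4 had 8.84 at 6 h and 6.79 at 0 h (4.15-fold). Both kept these levels at 12 h, at 10.78 for APL3 and 9 for APL4. AMY1, an alpha-amylase gene, was 3.15-fold higher, at 6.66 at 6 h and 5.01 at 0 h. APL3, APL4 and AMY1 belong to a list labelled sugar starvation and dark response, which also holds starch synthesis genes. In that list AKINBETA1, a regulatory subunit gene of the energy-sensing kinase SnRK1, was 2.13-fold lower (8.02 at 6 h and 9.11 at 0 h). The transcription factor gene bZIP44 was 2.51-fold lower (6.11 at 6 h and 7.44 at 0 h). The list therefore had 3 of 9 members higher and 2 lower, with a median of 0.76.

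Other genes with the largest rises had varied known roles. WSD1, which encodes a wax ester synthase, had 8.84 at 6 h and 3.40 at 0 h. The 0 h level lies under that array's 20th percentile of 3.70, so the difference is given as at least 35.2-fold, taken against levels raised to that percentile. AT3G05640 had 10.87 at 6 h and 5.44 at 0 h (43.2-fold). AT4G20320 had 10.60 at 6 h and 5.53 at 0 h (33.7-fold), and with 11.86 at 12 h it was the brightest of these at that time. The remaining rises among the first 15 lay between 17.2-fold and 22.8-fold, in order AT2G41190, AT5G16980, AT3G03341, AT5G22860, AT5G45950, ZW9, AT4G30650, AT2G47780 and AT1G70640 beside APL3. Among genes with a symbol, CHI, annotated as a chitinase, was 14.7-fold higher and CML41, a calmodulin-like protein gene, 14.2-fold higher. SIS, annotated as a salt-induced serine-rich protein gene, was 13.4-fold higher and EULS3, a lectin gene, 10.1-fold higher. Each of these 4 stood above its 6 h level at 12 h, by less than 2-fold, at 9.07 for CHI, 8.88 for CML41, 10.60 for SIS and 8.92 for EULS3.

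**Figure D2:**
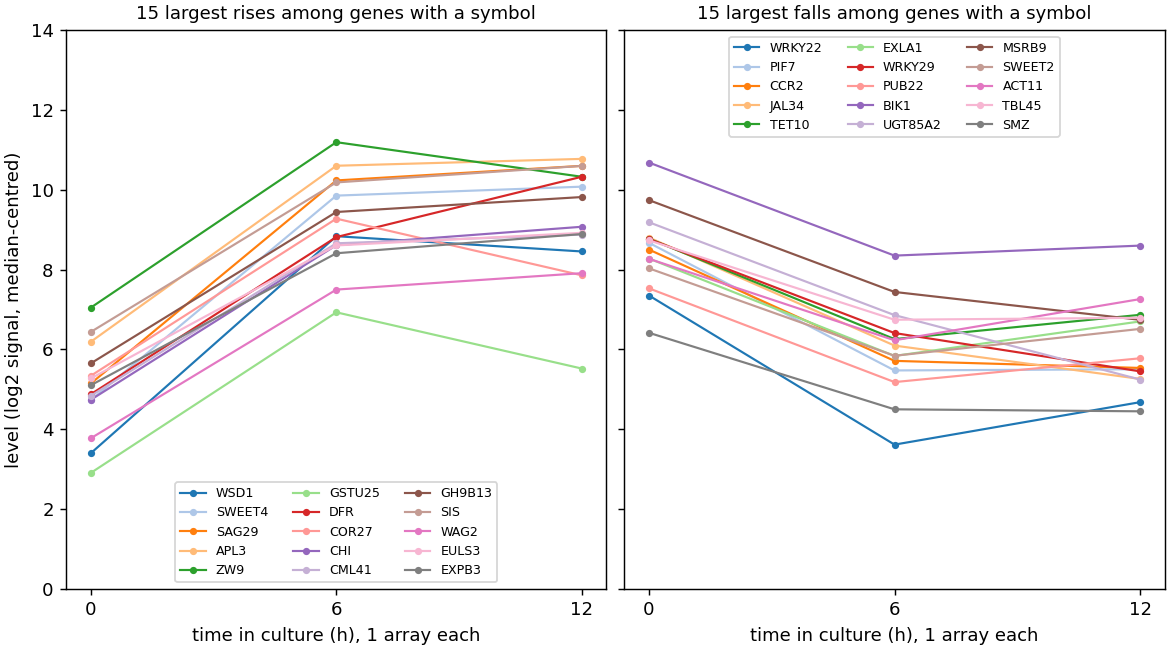
Levels (median-centred log2 signal) at 0, 6 and 12 h, 1 array each, of the 15 largest rises (left) and the 15 largest falls (right) among genes with a symbol. DFR went on rising after 6 h, while GSTU25 and COR27 came part of the way back, and WRKY29 and UGT85A2 went on falling.

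Auxin response genes were measured in several classes. Of 5 measured GH3 genes, whose products attach auxin to amino acids, 2 were higher and 1 lower. GH3.3 had 9.47 at 0 h, 12.70 at 6 h and 12.70 at 12 h, so its whole 9.35-fold difference was there at 6 h. GH3.1 had 6.37 at 0 h, 9.20 at 6 h and 9.91 at 12 h (7.11-fold at 6 h). GH3.9, a member of another branch of the family, was 2.57-fold lower, with 6.06 at 6 h and 7.42 at 0 h. GH3.17 had 5.58 at 6 h and 4.62 at 0 h, and WES1, also known as GH3.5, had 7.93 at 6 h and 7.58 at 0 h, both within 2-fold.

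All 6 measured Aux/IAA genes, which encode the repressors of the auxin response, had differences above 0, with a median of 0.58, and 1 passed 2-fold. That gene, IAA30, was dim, at 3.78 at 6 h and 2.52 at 0 h, and it no longer passed once low values were raised to a floor at each array's 20th percentile. IAA20 lay under that floor on both arrays, at 3.14 at 6 h and 2.88 at 0 h, so the sign of its difference rests on such low values. IAA29 had 6.46 at 6 h and 5.65 at 0 h, and IAA18 had 8.13 at 6 h and 7.33 at 0 h. HAT2, an auxin-induced homeodomain gene, was 3-fold higher, at 11.89 at 6 h and 10.31 at 0 h. WAG2, a kinase gene that acts on PIN auxin carriers, was 13.2-fold higher, with 7.50 at 6 h and 3.77 at 0 h, and kept that at 12 h with 7.91.

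Cytokinin response was represented by a pair of type-A response regulators, which are early targets that dampen the signal. RR16 had 8.18 at 0 h, 9.51 at 6 h and 9.56 at 12 h, a 2.51-fold difference at 6 h. ARR15 was slower and dim, with 3.72 at 0 h, 4.42 at 6 h and 5.87 at 12 h. BRL1, which encodes a vascular brassinosteroid receptor, had 5.06 at 6 h and 4.23 at 0 h, and so stayed within 2-fold. Among 3 known growth targets of brassinosteroid, the expansin genes EXPA4 and EXPA8 were higher and EXO, a growth gene, was 2.15-fold lower (5.78 at 6 h and 6.88 at 0 h).

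Expansins loosen the cell wall without cutting its polymers. Of 14 measured expansin genes 7 were higher (50%, beside 10.3% over all genes with a symbol) and 2 lower, with a median of 0.85. EXPB3 had 8.41 at 6 h and 5.1 at 0 h (9.90-fold), and EXPA4 had 9.03 at 6 h and 6.39 at 0 h (6.23-fold). EXPA15 had 6.72 at 6 h and 4.41 at 0 h (4.93-fold). EXPB1 was 4.40-fold higher, at 7.40 at 6 h and 5.26 at 0 h. The members that were lower were both of the expansin-like A group, EXLA1 with 5.84 at 6 h and 8.28 at 0 h (5.43-fold) and EXLA2 with 5.21 at 6 h and 6.88 at 0 h (3.18-fold). Of the 22 expansin genes named on the array, 8 were left out as dim.

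At 12 h the expansins had parted. EXPA8 had 5.74 at 0 h, 7.69 at 6 h and 9.30 at 12 h, and so was higher again at 12 h. EXLA2 had 6.88 at 0 h, 5.21 at 6 h and 7.49 at 12 h, above its starting level. Of the 7 that were higher at 6 h, 6 were still at least 2-fold higher at 12 h, the exception being EXPA16 (8.38 at 0 h, 9.80 at 6 h and 9.09 at 12 h).

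Other wall enzymes moved singly. GH9B13, of the endoglucanase family that cuts glucan chains, had 9.44 at 6 h and 5.65 at 0 h (13.9-fold), and GH9C2 of the same family had 11.98 at 6 h and 9.64 at 0 h (5.08-fold). Of the 16 measured members of that list of wall-loosening enzymes, 3 were higher and 1 lower, and the median was 0.01. XTH19, an enzyme gene that cuts and rejoins xyloglucan, was the 1 of 8 measured XTH genes past 2-fold, at 8.26 at 6 h and 5.12 at 0 h (8.85-fold). The other 7 lay between -0.84 and 0.82.

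Glycosyltransferases of the UGT family, which attach sugars to hormones, flavonoids and foreign compounds, held 13 of the genes that were higher. Of 37 measured UGT genes 13 were higher (35.1%) and 1 lower, beside 10.3% higher and 5.06% lower over all genes with a symbol, and the median was 0.42. All 13 were still at least 2-fold higher at 12 h. UGT73B1 had 10.14 at 6 h and 6.98 at 0 h (8.95-fold), and its neighbour on the chromosome UGT73B2 had 9.89 at 6 h and 7.28 at 0 h (6.11-fold). UGT76B1, known for a part in pathogen defence, had 8.10 at 6 h and 5.06 at 0 h (8.23-fold). UGT73C1, whose enzyme can glucosylate cytokinins, had 8.07 at 6 h and 5.29 at 0 h (6.86-fold).

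The 1 lower member, UGT85A2, was lower at each step, with 9.19 at 0 h, 6.86 at 6 h and 5.24 at 12 h. All 5 measured genes UGT73B1 to UGT73B5 were higher, between 3.26-fold and 8.95-fold. They are close relatives, and how far their probe sets read each other's transcripts was not tested. The 18 UGT genes left out as dim are not counted here, and a gene bright in 1 sample is more likely to pass that filter.

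**Figure D3:**
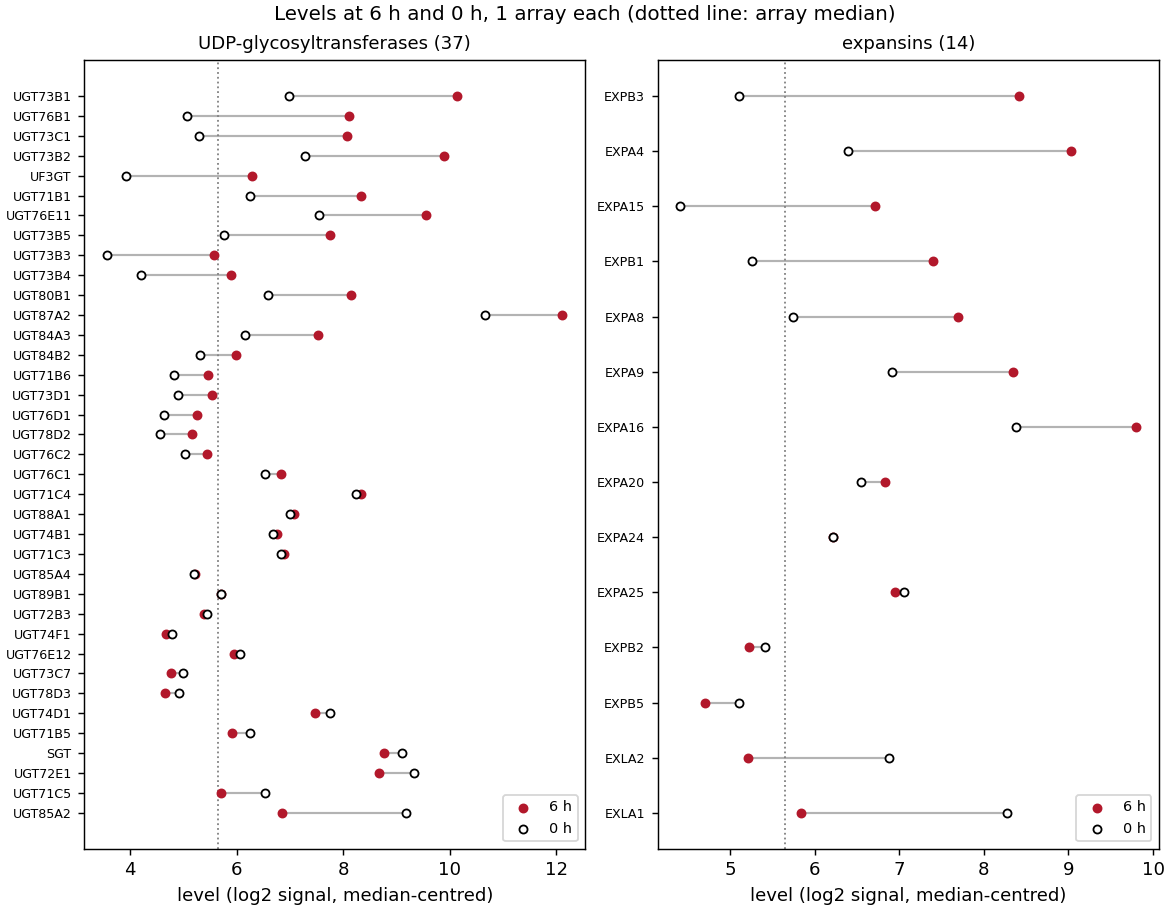
Levels (median-centred log2 signal) of 37 UDP-glycosyltransferase genes (left) and 14 expansin genes (right) at 6 h (red) and 0 h (open), 1 array each, ordered by difference. A top group of 13 UGT and 7 expansin genes stands well to the right at 6 h, while EXLA1, EXLA2 and UGT85A2 stand to the left.

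Glutathione transferases, which join glutathione to reactive compounds, moved singly too. Of 13 measured genes 3 were higher and 1 lower, and the median was 0.04. GSTU25 had 2.90 at 0 h, 6.93 at 6 h and 5.52 at 12 h. Its 0 h level also lies under the 20th percentile, and the difference at 6 h was at least 9.37-fold against that floor. GSTF3 had 6.76 at 6 h and 4.25 at 0 h (5.68-fold), and ATGSTF13 was 2.42-fold lower, at 5.06 at 6 h and 6.33 at 0 h. Among 13 genes of the oxidative stress list 5 were higher (38.5%, beside 10.3%) and 2 lower, with a median of 0.46. At a log2 difference of 1.5 these counts were 2 and 1. UGT73B5, among the 5 that were higher, is also counted among the UGT genes above. NDB2, an alternative NADH dehydrogenase gene of mitochondria, had 9.94 at 6 h and 7.51 at 0 h (5.37-fold). MSRB9 was 4.93-fold lower, at 7.44 at 6 h and 9.74 at 0 h, while its neighbour MSRB8, which also encodes an enzyme that repairs oxidised methionine, was 2.7-fold higher, at 5.17 at 6 h and 3.74 at 0 h.

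Most measured anthocyanin genes were higher at 6 h, and their levels went on rising to 12 h. Of the 7 named on the array, 2 were left out as dim. Of 5 measured members 4 were higher (80%, beside 10.3% over all genes with a symbol) and 0 lower, with a median of 1.33 at 6 h and 1.97 at 12 h. All 4 lay under the array median of 5.65 at 0 h. A gene that is bright on other arrays is more likely to pass the filter. DFR, the reductase gene that commits flavonoids to anthocyanin, had 4.88 at 0 h, 8.81 at 6 h and 10.33 at 12 h (15.3-fold at 6 h and 43.8-fold at 12 h). UF3GT, which adds a xylose to anthocyanin, had 3.91 at 0 h, 6.29 at 6 h and 7.47 at 12 h. This gene is also counted among the UGT genes that were higher. CHIL, a helper of chalcone isomerase, had 5.38 at 0 h, 6.70 at 6 h and 7.35 at 12 h. AT5MAT, an anthocyanin malonyltransferase gene, was 2.2-fold higher (6.36 at 6 h and 5.22 at 0 h), and UGT78D2 had 5.16 at 6 h and 4.55 at 0 h.

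Abscisic acid and drought genes were higher at 6 h and partly back at 12 h. All 3 measured members of that list, of 6 named on the array, were higher at 6 h, with a median of 1.97 at 6 h and 0.47 at 12 h. COR15A, a chloroplast protein gene induced by cold, had 9.35 at 0 h, 12.33 at 6 h and 11.68 at 12 h (7.89-fold at 6 h). KIN2 had 9.23 at 0 h, 11.20 at 6 h and 9.70 at 12 h, back within 0.5 of its start. COR47, a dehydrin gene, had 9.28 at 0 h, 10.31 at 6 h and 9.73 at 12 h. The separate list of cold and clock genes went no single way, with 1 of 3 higher, 1 lower and a median of -0.12. COR27, a cold-regulated gene of the clock, was 15.3-fold higher at 6 h and 5.73-fold at 12 h (5.34 at 0 h, 9.28 at 6 h and 7.86 at 12 h). STZ, a zinc finger gene induced by cold and salt, was lower, with 7.04 at 6 h and 8.57 at 0 h. The clock gene GI had 9.62 at 0 h, 9.50 at 6 h and 6.47 at 12 h, so its fall came after 6 h.

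A few immune signalling genes were lower. Of 4 measured members of the defence list, which names 58 genes, 3 were lower and 0 higher, with a median of -1.17, beside 5.06% lower over all genes with a symbol. With the lowest 50% of probe sets left out, and also at a log2 difference of 1.5, 1 was lower. BIK1, a kinase that relays signals from immune receptors, had 8.35 at 6 h and 10.68 at 0 h (5.04-fold lower). EFR, the receptor for bacterial elongation factor Tu, had 5.06 at 6 h and 6.36 at 0 h (2.47-fold lower), and SAG101, an immune signalling partner of EDS1, had 5.62 at 6 h and 6.67 at 0 h. WRKY22, a factor downstream of flagellin perception, had 7.35 at 0 h, 3.61 at 6 h and 4.68 at 12 h (13.3-fold lower at 6 h), and WRKY29, which acts beside it, had 8.77 at 0 h, 6.41 at 6 h and 5.45 at 12 h. Of 7 measured WRKY genes 2 were lower and 1 higher (WRKY42, 6.47 at 6 h and 4.64 at 0 h), with a median of 0.36. PUB22, an E3 ligase gene that dampens immune responses, was 5.1-fold lower, at 5.18 at 6 h and 7.53 at 0 h.

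Both measured light signalling genes and a few nuclear photosystem genes were lower. PIF7, a transcription factor of the shade response, had 8.67 at 0 h, 5.47 at 6 h and 5.50 at 12 h (9.18-fold lower at 6 h). HYH, a relative of the light regulator HY5, had 7.31 at 0 h, 6.19 at 6 h and 6.84 at 12 h. All 10 measured nuclear photosystem genes had differences below 0 at 6 h, and 2 of them were at least 2-fold lower. Their median was -0.43 at 6 h and -0.87 at 12 h. LHCB4.2, a light-harvesting antenna gene, had 9.68 at 0 h, 8.29 at 6 h and 7.02 at 12 h, and PSAN, a photosystem I subunit gene, had 11.20 at 0 h, 9.94 at 6 h and 9.49 at 12 h. LHB1B2, an antenna gene, had 12.28 at 0 h, 11.50 at 6 h and 8.48 at 12 h, so most of its fall came after 6 h.

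The plastid's own genes differed from these. Of 63 measured plastid-encoded genes 0 were past 2-fold in either direction, and the median was -0.02. For the 18 that encode photosystem parts the median was 0.01, with a range of -0.16 to 0.09. The plastid-encoded genes were among the brightest on the array, between 11 and 14.18 at 6 h and between 11.13 and 14.16 at 0 h, and whether signals that high still respond in proportion was not tested. Of 5 measured genes of the chlorophyll, carotenoid and plastid list 2 were lower, HEMA2 with 6.05 at 6 h and 7.38 at 0 h and CHLM with 9.07 at 6 h and 10.38 at 0 h. PORB went the other way within 2-fold, with 10.09 at 6 h and 9.49 at 0 h. All 4 Calvin cycle and photorespiration genes were within 2-fold, with a median of -0.57.

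Vascular genes had hardly begun to differ, apart from peptides. CLE44, which encodes the TDIF peptide that holds procambial cells back from becoming xylem, had 6.90 at 0 h, 9.18 at 6 h and 10.00 at 12 h (4.86-fold at 6 h). CLE41, which encodes the same peptide, was later, with 8.58 at 0 h, 9.26 at 6 h and 10.13 at 12 h. CLE25, another peptide gene expressed in phloem, had 7.24 at 6 h and 5.67 at 0 h (2.98-fold). Of the 7 measured phloem genes 2 were higher and 0 lower, with a median of 0.72.

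Of the 5 procambium and cambium genes measured, from a list of 41, and the 8 xylem and secondary wall genes measured, from a list of 76, 0 passed 2-fold at 6 h. Under quantile normalization 1 procambium gene, BRL1, was higher (log2 difference 1.08) and 1 xylem gene lower. For the 5 procambium and cambium genes the median was 0.27, with LHW, a factor that starts vascular divisions, at 8.60 at 6 h and 7.93 at 0 h. For the 8 xylem and secondary wall genes it was -0.19, and 6 of 8 were below 0. TBL33, which acts in xylan acetylation, had 4.74 at 0 h, 5.41 at 6 h and 7.05 at 12 h. IRX15-L, of xylan synthesis, had 7.30 at 0 h, 6.39 at 6 h and 6.89 at 12 h.

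Few cell division genes passed 2-fold. Of 7 genes of G2 phase and mitosis 1 was higher, AUR2, an Aurora kinase gene (5.13 at 0 h, 6.26 at 6 h and 6.69 at 12 h), while its relatives AUR1 (6.90 at 6 h and 7.46 at 0 h) and AUR3 (6.47 at 6 h and 6.54 at 0 h) were not. Among 8 histone and replication genes, ICU2, the catalytic subunit gene of DNA polymerase alpha, passed 2-fold at 6 h and was back at 12 h (7.81 at 0 h, 8.83 at 6 h and 7.97 at 12 h). HTR12, the centromere histone gene, followed the same course within 2-fold, with 7.30 at 0 h, 8.20 at 6 h and 7.45 at 12 h. PRL, also known as MCM7, had 7.98 at 0 h, 8.79 at 6 h and 7.93 at 12 h, and HTB2 had 6.13, 6.91 and 6.36. Of the 8 histone and replication genes 6 were above 0 at 6 h and 2 below. The median of that list was 0.58 at 6 h and 0.16 at 12 h. Of 9 ribosome biogenesis genes 0 passed 2-fold, with a median of 0.04 at 6 h and -0.46 at 12 h.

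**Figure D4:**
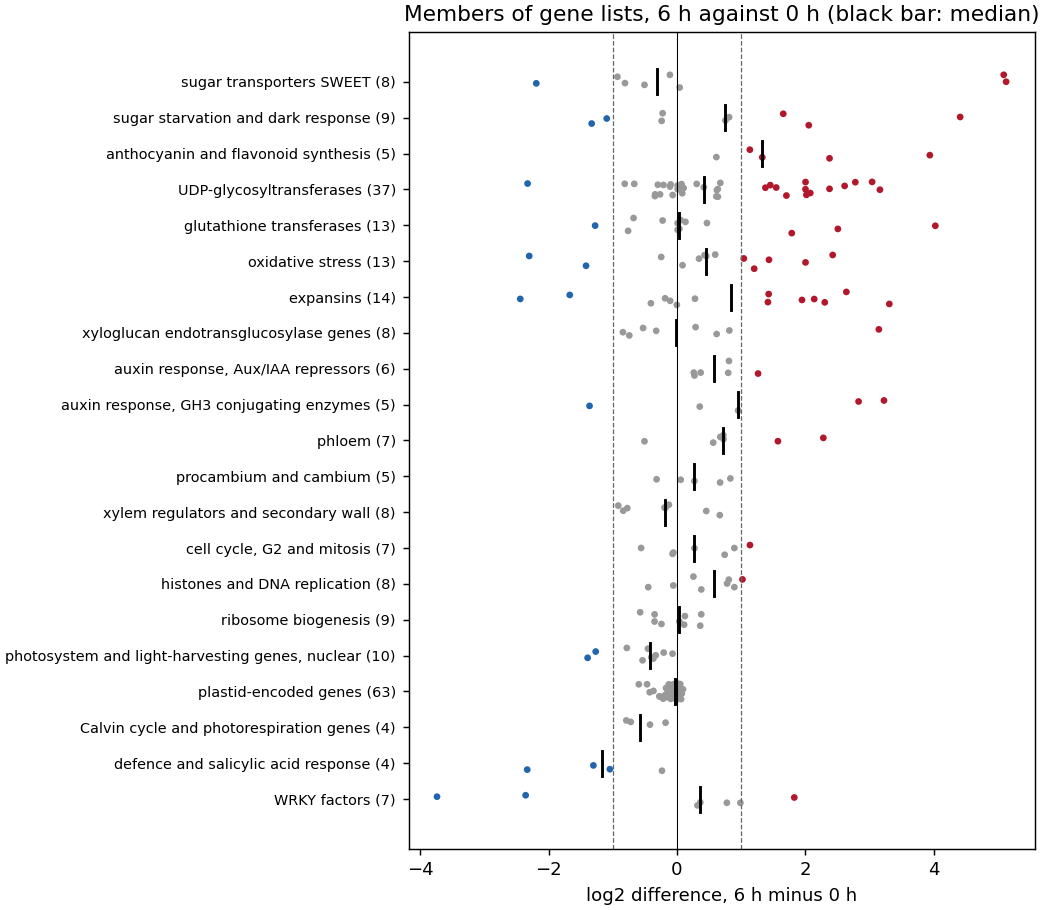
Log2 difference, 6 h minus 0 h, of each measured member of 21 gene lists, with the number of members in brackets, the median as a black bar, and members at least 2-fold higher in red or lower in blue beyond the dashed lines. The 21 lists were picked from those in the text, after their values were seen, and plastid-encoded genes gather at 0.

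Further lists held a few changes each. BGLU28, a glucosidase gene that rises when sulfate is short, had 8.40 at 6 h and 5.40 at 0 h (8.01-fold), and APS3, a sulfate-activating enzyme gene, had 8.68 at 6 h and 7.66 at 0 h (2.03-fold). PYE, a regulator of the iron response, was 2.58-fold lower, at 7.49 at 6 h and 8.86 at 0 h. OPCL1, of jasmonate synthesis, was 2.14-fold lower (8.77 at 6 h and 9.86 at 0 h), and ABR1, an ethylene response factor gene of the wound list, 2.97-fold lower (6.57 at 6 h and 8.14 at 0 h). Of 5 class III peroxidase genes AT5G64120 was lower, at 9.03 at 6 h and 10.55 at 0 h. Of 22 CLE and other peptide genes 3 were higher and 1 lower, with a median of 0.05, and of 14 defensin-like genes 3 were higher and 0 lower, also with a median of 0.05. RALFL18 was 6.95-fold higher, at 7.93 at 6 h and 5.13 at 0 h, and the defensin gene PDF1.4 was 5.1-fold higher, at 8.44 at 6 h and 6.09 at 0 h. Of 16 cytochrome P450 genes 2 were higher and 1 lower, the widest being CYP71B6 at 9.08 at 6 h and 7.16 at 0 h.

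Several lists had few or no members past 2-fold. Of 4 genes widely used as constant references 0 passed 2-fold, and their differences lay between -0.51 and 0.55, with GAPC2 at 12.82 at 6 h and 12.87 at 0 h. Of 17 genes of the proteasome and ubiquitin system 1 was higher and 1 lower, with a median of 0.10. The 4 gibberellin genes, 3 ethylene genes, 6 bHLH factor genes, 3 glucosinolate genes and 3 translation genes measured had 0 members past 2-fold. All 4 gibberellin and all 3 translation genes were above 0, with medians of 0.42 and 0.43. The medians were -0.07 for ethylene, -0.20 for bHLH factor and 0.07 for glucosinolate genes. ACT11, an actin gene that is not among these reference genes, was 4.12-fold lower, at 6.23 at 6 h and 8.27 at 0 h.

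Among the 15 largest falls over all genes, 13 were of loci with no symbol, and of all genes tested 12.4% have one. AT4G27450 had 4.45 at 6 h and 9.36 at 0 h (30.1-fold lower), and AT1G35350 had 5.55 at 6 h and 10.07 at 0 h (22.9-fold lower). AT3G22750, AT2G45180 and AT5G39580 were each about 16-fold lower, at 16.2-fold, 16.1-fold and 16.1-fold. The other loci with no symbol among the first 15 were AT4G33560, AT1G51820, AT2G43140, AT4G36850, AT5G02540, AT5G19110, AT2G38240 and AT5G59080, between 8.88-fold and 15.5-fold lower. A pair of the 13 fell by at least a further 2-fold from 6 to 12 h. They were AT2G45180 with 11.22 at 0 h, 7.21 at 6 h and 5.96 at 12 h, and AT2G38240 with 9.51 at 0 h, 6.29 at 6 h and 3.88 at 12 h.

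Among genes with a symbol and no place above, CCR2 (AT1G80820), a lignin pathway reductase gene, was 6.91-fold lower, and JAL34, a lectin gene, 6.53-fold lower. TET10, a tetraspanin gene, was 5.72-fold lower, TBL45, of the family that acetylates wall polymers, 3.97-fold lower, and SMZ, a repressor of flowering, 3.78-fold lower. Of these 5, TET10 was nearer its start at 12 h, at 6.87, and JAL34 farther from it, at 5.26.

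Most differences lasted to 12 h. Of the 741 genes that were higher at 6 h, 593 (80%) were still at least 2-fold above 0 h at 12 h, 109 (14.7%) were between 0.5 and 1 above, 36 (4.86%) were back within 0.5 on the log2 scale and 3 had passed below the 0 h level by over 0.5. Of the 452 that were lower, 327 (72.3%) kept it, 87 (19.2%) partly kept it, 35 (7.74%) were back and 3 had passed above. No gene of the 1193 was at least 2-fold on the other side at 12 h. Both differences use the same 0 h array, so an error in that array would appear as a lasting change.

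From 6 to 12 h itself, 373 genes (3.4%) differed by at least 2-fold, 189 (1.72%) being higher and 184 (1.68%) lower at 12 h, and the median size of a difference was 0.22, against 0.31 from 0 to 6 h. Of the genes higher at 6 h, 52 rose a further 2-fold and 34 came back by as much. Of the genes lower at 6 h, 18 fell a further 2-fold and 27 came back by as much. Against 0 h, 896 genes (8.16%) were higher and 762 (6.94%) lower at 12 h. Of 7474 genes within 0.5 of their start at 6 h, 171 were at least 2-fold lower and 102 at least 2-fold higher at 12 h.

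**Figure D5:**
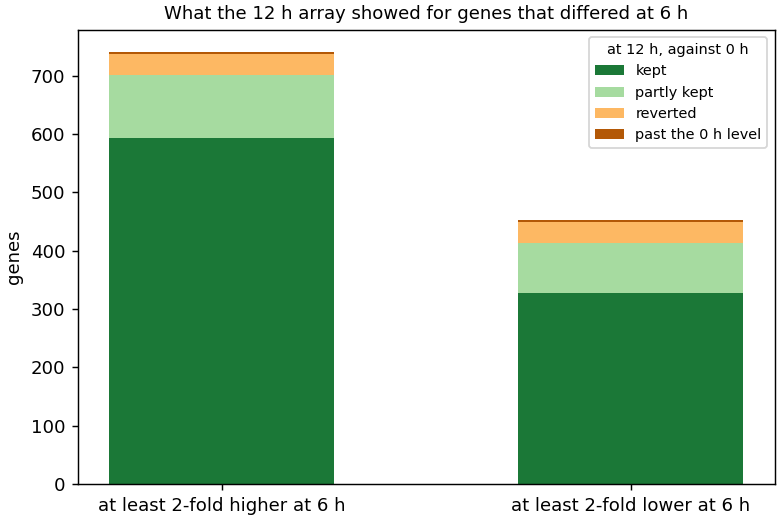
Number of genes (vertical axis) at least 2-fold higher (left bar) or lower (right bar) at 6 h, divided by what the 12 h array showed against 0 h. The part that kept the difference is 593 of 741 genes that were higher and 327 of 452 that were lower.

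Genes with a symbol that came back by 12 h were few. DREB2C, a transcription factor gene of heat and drought stress, had 4.23 at 0 h, 6.28 at 6 h and 4.46 at 12 h, the widest such return among risen genes with a symbol. AGO7, which acts in trans-acting siRNA production, had 7.37 at 0 h, 8.68 at 6 h and 7.78 at 12 h. SPT, a bHLH growth regulator gene, had 8.88 at 0 h, 10.06 at 6 h and 9.21 at 12 h. THE1, a receptor kinase gene that senses the state of the wall, had 7.33 at 0 h, 5.88 at 6 h and 6.97 at 12 h. QQS, a gene known for its effect on leaf starch, CHX16, a cation exchanger gene, and SFP1, a sugar transporter family gene, were each below their 0 h level at 12 h, with log2 differences of -0.50, -0.47 and -0.44. These genes were named for their course after their values were seen.

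Those that went on in the same direction by at least 2-fold from 6 to 12 h included CSLC5, of the family that makes the xyloglucan backbone, with 8.75 at 0 h, 10.36 at 6 h and 11.39 at 12 h. HMT-1, a homocysteine methyltransferase gene, had 7.23 at 0 h, 8.78 at 6 h and 9.94 at 12 h. GH9B8, an endoglucanase gene, had 4.79 at 0 h, 5.80 at 6 h and 7.20 at 12 h. Only genes whose brighter array of 6 h and 0 h was at or above the median were counted here. Beside DFR, UF3GT and EXPA8, these 3 and BGLU25 and TBL39 make up the 8 such risen genes with a symbol. MSRB8, which was dimmer than that limit, also rose further (3.74 at 0 h, 5.17 at 6 h and 6.93 at 12 h). LHCB4.2 and UGT85A2 were the 2 such fallen genes with a symbol under the same limit. CSLC5, HMT-1, BGLU25 and TBL39 were named after their values were seen.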

How the data were processed

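Gene expression in 13 samples was measured on 1 Affymetrix array each, with labelling by a one-cycle kit, per the labels. The deposited values are log2, as read from their range. How background, probe summary and scaling were handled is not given in the sources used here. Per the submitters' processing notes the software was GCOS, with no version. Precision is limited by the number of arrays, and no measure of signal over background was used.

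Of 38408 probe sets, 16722 have 1 gene in the platform annotation (16574 matched to TAIR10.1 by locus), 759 several and 20927 none. Each array was centred on its median, the lowest 30% of probe sets by mean over 13 arrays were left out, and the highest probe set by mean stood for a gene. For 92 genes with several probe sets, the median gap between them was 0.41 on the log2 scale, and of the 10 of these called by the probe set used, the other set had the same sign in 8 and was 2-fold apart in 0. A difference of at least 1 was called, with no test, in Python 3.11.15 with numpy 2.4.6 and pandas 2.3.3, and steps were tested on simulated data. Figures used matplotlib 3.10.9.

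The comparison, the 64 gene lists and the rules were chosen with earlier results of these data known. Of the lists, 57 had a measured member, and 5 members matched by symbol to the wrong gene were left out. The naming rule drew on 8616 genes whose brighter array of 6 h and 0 h was at or above the median. It took the 15 largest rises and falls over all genes and among those with a symbol. From each list it took up to 5 such members at least 2-fold apart, or every measured member of lists of 5 or fewer. Not every gene it took is described in the text. Members named beside these to show a level or a course were chosen after their values were seen. A planned search for promoter motifs was not run.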

Additional observations from a re-analysis of the deposited data

How the results depend on the processing

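No paired analysis was possible because each time is 1 array. Across quantile normalization, uncentred values, centring on probe sets with 1 gene, floors at the 20th and 40th percentile, the mean of probe sets and a filter on the 0, 6 and 12 h arrays, each of the 4 counts (higher, lower, kept and reverted) stayed within 1.5 times, and the share of called genes that were higher lay between 59.6 and 63.2%. With the lowest 50% left out, the count lower was 246 and that higher 625 (71.8% higher), and with no filter 668 and 794 (54.3% higher), so that share follows the filter. Under the first of these, UGT genes that were higher numbered 8 and anthocyanin genes 2, as dim members were left out, and with no filter the abscisic acid and drought genes numbered 5. With the lowest 50% left out, 1 defence gene and 0 WRKY genes were lower. At a log2 difference of 1.5, 337 genes were higher and 166 lower, 406 of them kept and 9 reverted. Among genes whose brighter array was at or above its 75th percentile, an alternative chosen after seeing the data, 351 were higher and 207 lower, 446 kept and 22 reverted. In each of these settings 0 genes were at least 2-fold on the other side at 12 h. BIP1, a chaperone gene at 4.17 at 6 h and 2.69 at 0 h, turned to -0.048 with the floor at the 40th percentile. Of 120 named genes past 2-fold, 117 stayed past it under quantile normalization, which COR47, ICU2 and APS3 did not, and 116 with the floor at the 40th percentile, which BIP1, GSTU22, PDF2.5 and GH9B8 did not. GH9B8 fell under it on values as deposited (0.99) and RALFL22 with centring on probe sets with 1 gene (-0.99). The cause was not tested. With 1 array a time, array error cannot be separated from change.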

Other observations

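Families defined by the stem of their symbol, and chosen after the values were seen, gave a few more groups, from 45 stems with at least 5 members. Over all genes with a symbol 10.3% were higher. Of 13 measured BGLU genes, which encode beta-glucosidases, 5 were higher and 1 lower, with a median of 0.34. The widest beside BGLU28 was BGLU47, at 7.01 at 6 h and 4.38 at 0 h. BGLU45, among the 5 that were higher, lay under the 20th percentile of both arrays, at 3.51 at 6 h and 2.25 at 0 h. Of 8 ATG genes, which act in autophagy, 3 were higher: ATG8G had 7.01 at 6 h and 5.78 at 0 h, ATG8H 8.29 at 6 h and 7.19 at 0 h, and ATG8D 7.34 at 6 h and 6.28 at 0 h. ATG8B, ATG8C, ATG8E, ATG8F and ATG3 were within 2-fold. Of 8 aldehyde dehydrogenase genes 2 were higher, ALDH7B4 at 11.09 at 6 h and 8.97 at 0 h and ALDH2C4 at 12.19 at 6 h and 10.66 at 0 h. PUB23, the close relative of PUB22, had 7.17 at 6 h and 8.96 at 0 h.

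A minority of genes that differed had a next gene that differed alike, a larger share than over all pairs. Some such pairs are close relatives, such as UGT73B1 and UGT73B2, and how far their probe sets read each other's transcripts was not tested. Of 321 genes higher at 6 h whose next gene on the chromosome was measured, 46 (14.3%) had a next gene that was also higher, beside 6.98% over 4655 neighbouring pairs. For genes that were lower, 12 of 172 (6.98%) had a next gene that was lower, beside 3.78% over all pairs. In 12 pairs of neighbours 1 was higher and the other lower, among them MSRB8 and MSRB9 and also CYP71B28 (6.98 at 6 h and 5.48 at 0 h) and CYP71B29 (6.61 at 6 h and 7.70 at 0 h).

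The deposited values of 418 probe sets were equal to the last digit at 6 h and 0 h, 108 of them standing for genes tested. Any 2 arrays of the 5 from 0 to 24 h, or of the 8 later ones, shared between 251 and 1101 such values, and any array of 1 set and any of the other between 0 and 3.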
